A study of Ovis aries with 7 samples.

Results

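The cytosolic ribosomal protein genes are the genes for the protein subunits of the ribosome that translates nuclear messenger RNA in the cytoplasm. Their probes were taken from a sheep array by gene symbol (RPL, RPS, RPLP or RPSA followed by the subunit's number where it has one) or by a probe description that names a large- or small-subunit ribosomal protein, with the S6 kinases and the mitochondrial ribosomal proteins left out. This gave 32 of 15008 probes, 15 by symbol and 17 by description alone, for 19 genes of 957 named on the array, of which 8 encode large-subunit and 11 small-subunit proteins. No kinase probe had to be left out, and 1 mitochondrial probe, MRPL32, was. A further 6 probes carried an older or missing symbol and were recognised as RPL32, RPL34, RPS2, RPSA and RPS26 only through RefSeq. The match was by transcript accession for RPSA and by gene identifier or synonym for others. They added 4 genes and are given apart from the 32. No probe was named for the acidic stalk proteins RPLP0, RPLP1 and RPLP2, or for FAU, RPS18 and RPL19.

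A ribosome holds 1 copy of nearly every one of these proteins, with RNA, in a large subunit that joins amino acids and a small subunit that reads the message. The cell makes them in matched amounts, and their messenger RNAs begin with a terminal oligopyrimidine tract through which the growth-controlling kinase mTOR regulates their translation. Hypoxia is known to lower mTOR activity and protein synthesis in many cell types, mostly through translation of existing messages, which an array of messenger RNA does not measure.

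The 7 samples were hypothalami of chronically catheterised sheep fetuses late in gestation, age-matched, with 1 array per fetus. In the hypoxia group (n = 3) low oxygen in the gas the ewe breathed lasted 30 min, and a recovery at normal oxygen lasted another 30 min. In the control group (n = 4) oxygen was normal for both periods, and tissue of both groups was collected at 60 min. The genotype, breed and exact gestational age are not given in the sources used here, and the titles name the samples as replicates of their group. The samples are whole hypothalami, in which fewer cells of a type and less RNA per cell cannot be told apart.

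Levels are log2 processed intensities relative to the 75th percentile of the same array, so 0 is that percentile, and they can be set against each other only within 1 probe. Between 77.2% and 86.4% of spots were well above background per array, and no ribosomal protein probe was saturated. Slide 1 carried the 3 hypoxia arrays and no control, while slide 2 carried control replicates 1 and 2 and slide 3 the other controls, so that slide and treatment cannot be told apart. Hypothalamic peptide messages were found for 10 of 14 genes of a list added after the data were seen, oxytocin (OXT), somatostatin (SST) and neuropeptide Y (NPY) among them, while none of 13 general neuronal markers named a tested probe.

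The probes are 60 bases long, and several members are read by probes that share most of their bases, which makes them repeat readings of 1 stretch of message. The 3 probes of RPL10, printed 5′ to 3′ as the array files give them, show this, with the stretch of 42 bases that all of them hold in capitals.
RPL10 probe 1: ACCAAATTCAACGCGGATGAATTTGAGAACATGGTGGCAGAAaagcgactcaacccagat
RPL10 probe 2: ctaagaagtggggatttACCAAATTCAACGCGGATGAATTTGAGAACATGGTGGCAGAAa
RPL10 probe 3: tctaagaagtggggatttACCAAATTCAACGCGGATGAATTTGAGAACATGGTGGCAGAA

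RPS12 shows the same for a small-subunit gene, with the 52 shared bases of a pair of its probes in capitals.
RPS12 probe 1: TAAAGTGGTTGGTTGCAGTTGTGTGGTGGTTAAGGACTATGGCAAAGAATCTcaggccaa
RPS12 probe 2: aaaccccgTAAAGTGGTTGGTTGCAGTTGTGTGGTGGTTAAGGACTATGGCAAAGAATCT

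Probes 1 and 2 of RPS25 have no bases in common, and they are shown because their spread between arrays differs. Only the last 30 bases of the first are printed, with the hexamer AATAAA, the letters of the common polyadenylation signal, in capitals.
RPS25 probe 1, last 30 bases: acactttgaaaAATAAAactttattaaatc
RPS25 probe 2: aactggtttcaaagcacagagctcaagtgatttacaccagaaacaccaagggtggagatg

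The probes of the 4 genes with the clearest single values follow, RPS23 and RPL32 by their first 30 bases.
RPS23: cctcacccaaggaaaactgtctttctagag
RPL32: tccaacattaggttaaacctcacaacagcg
RPSA: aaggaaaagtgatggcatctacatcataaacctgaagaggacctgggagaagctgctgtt
RPS2: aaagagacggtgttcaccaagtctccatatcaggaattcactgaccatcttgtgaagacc

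The comparison asks which messages differed in the hypothalamus after transient hypoxia. Mean levels of most ribosomal protein messages lay close to those of the controls. With 1 probe per gene, 12 of 19 genes had a lower mean in hypoxia and 7 a higher one, the log2 differences ran from -0.76 for RPS23 to 0.30 for RPS15, and their median was -0.06, beside 0.03 over all 12712 tested probes. None of the 32 probes passed an adjusted p of 0.05 in limma, where 2 probes in all, or 0.0157%, did and 1 of them, or 0.00787%, was lower in hypoxia. At an unadjusted p under 0.05 the count was also 0 of 32, beside 15.7% of all tested probes. The share of genes lower, 63.2%, stood beside 45.3% of all tested probes.

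The intervals were also narrow for most genes. The 95% interval lay within 1.5-fold either way for 16 of 19 genes, beside 54.6% of all tested probes, the exceptions being RPS15, RPS23 and RPS25. Among probes well above background on all 7 arrays the count was 26 of 29, beside 60.2% of such probes, and the median standard error was 0.123 against 0.146. The groups did not overlap for 3 of 32 probes, which were 2 RPL10 probes and RPS6, all lower in hypoxia, beside 7.46% of all tested probes that were separated in that direction.

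**Figure D1:**
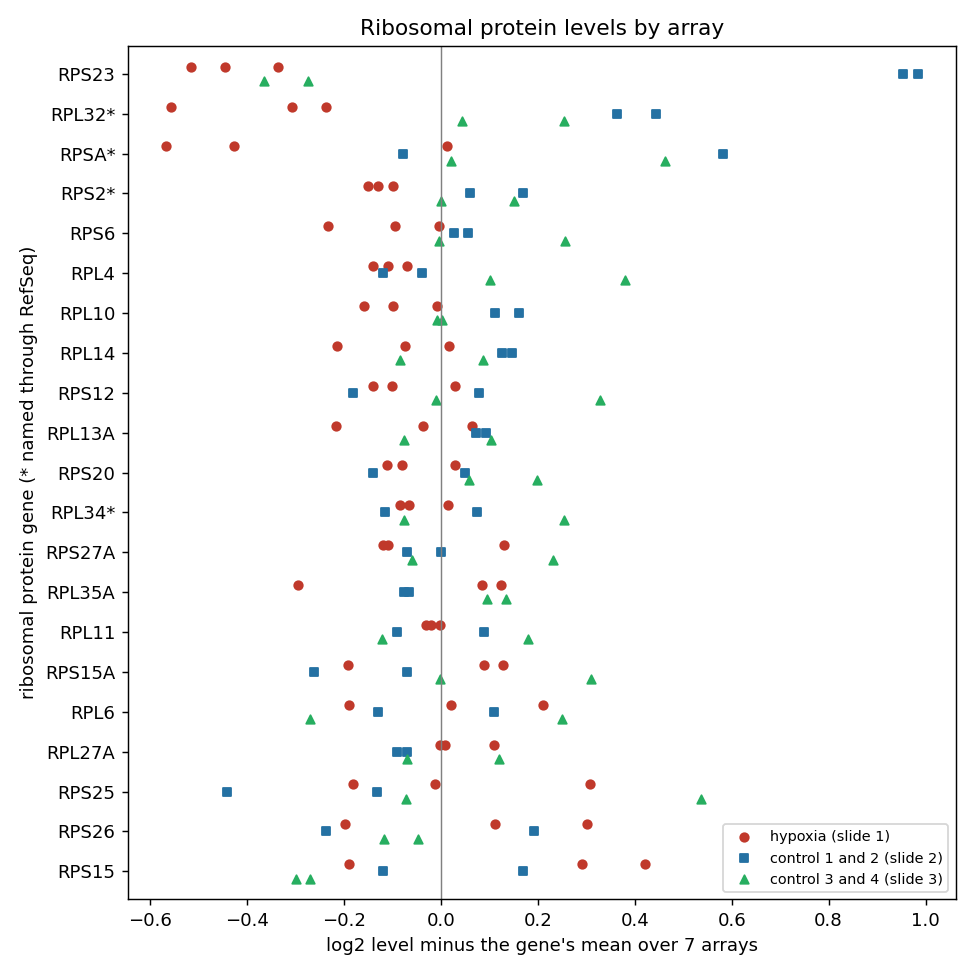
Log2 level of each ribosomal protein gene on each array minus the gene's mean over the 7 arrays (horizontal axis), for 17 of the 19 genes chosen by symbol or description and 4 named through RefSeq (asterisk), 1 probe per gene. Hypoxia arrays (circles) and control arrays (squares, slide 2; triangles, slide 3) intermingle for most genes, with RPL32, RPS2, RPL10 and RPS6 separated by group, the last pair narrowly, and RPS23 separated by slide 2.

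Of 8 large-subunit genes, 6 had a lower mean in hypoxia, with a median difference of -0.08 and a range from -0.19 to 0.07, and all 8 intervals lay within 1.5-fold. RPL10, a late-joining protein needed for the subunits to pair, had levels of 3.47, 3.41 and 3.56 in hypoxia and 3.73, 3.68, 3.57 and 3.56 in control. The groups touched without overlapping, at hypoxia replicate 3 and control replicate 4. Its difference was -0.16 (SE 0.10; adjusted p = 0.453). Probes 2 and 3 gave -0.18 and -0.22.

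RPL4, which lines the exit tunnel of the growing protein, had levels of 5.78, 5.74 and 5.71 in hypoxia and 5.73, 5.81, 5.95 and 6.23 in control. Control replicate 4 stood highest and control replicate 1 lay among the hypoxia arrays. The difference was -0.19 (SE 0.14; adjusted p = 0.523), and -0.09 without control replicate 4. Its other probes, which share no bases with the first, gave -0.08 each.

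RPL14 had levels of 5.12, 5.21 and 4.98 in hypoxia and 5.32, 5.34, 5.11 and 5.28 in control, overlapping at control replicate 3. Its difference was -0.16 (SE 0.11; adjusted p = 0.498), and the second probe, which shares 59 bases, gave -0.23. RPL13A, used as a reference gene in quantitative PCR, had levels of 4.60, 4.50 and 4.32 in hypoxia and 4.63, 4.61, 4.46 and 4.64 in control. The groups overlapped, with hypoxia replicate 3 lowest, and the difference was -0.11 (SE 0.11; adjusted p = 0.644).

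The remaining large-subunit genes had differences near 0. RPL11, which binds the p53 regulator MDM2 when free of the ribosome, differed by -0.03 (SE 0.11), RPL35A by -0.05 (SE 0.14) and RPL6 by 0.02 (SE 0.16). RPL27A had levels of 6.73, 6.83 and 6.72 in hypoxia and 6.63, 6.65, 6.65 and 6.84 in control. A single control, replicate 4, stood apart from the other 3 and reached the highest hypoxia array, and the difference was 0.07 (SE 0.10; adjusted p = 0.777).

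**Figure D2:**
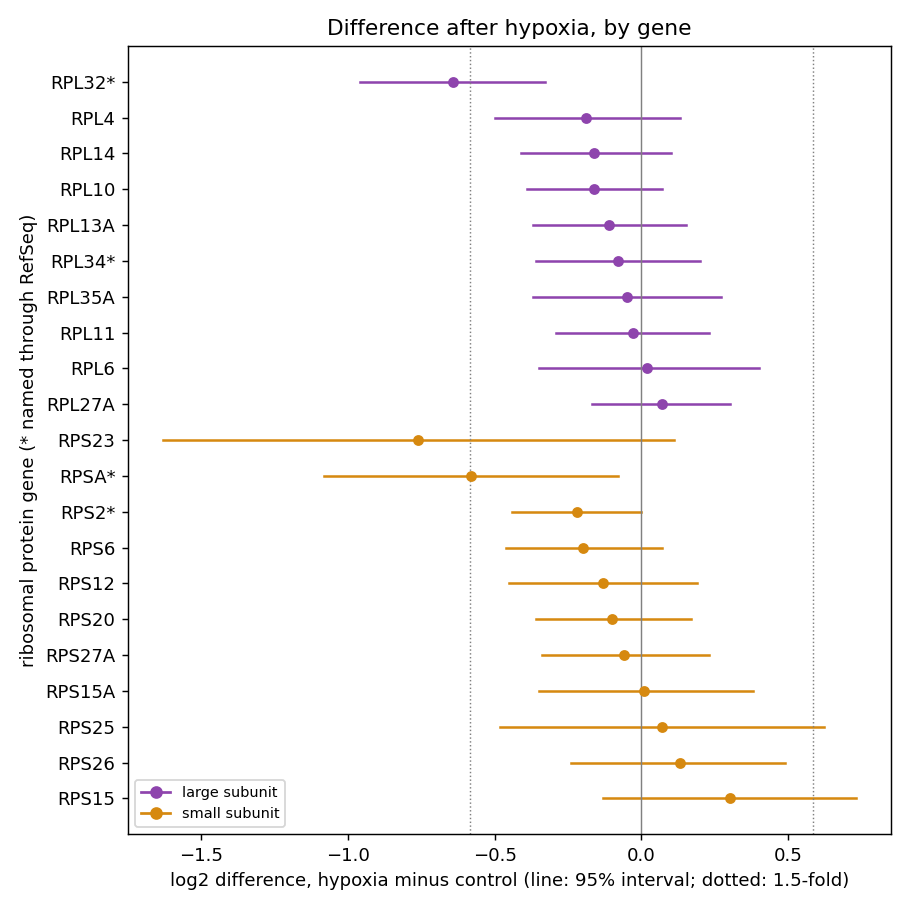
Log2 difference of hypoxia (n = 3) minus control (n = 4) for 17 of the 19 ribosomal protein genes and the 4 named through RefSeq (points) with their 95% intervals (lines), coloured by subunit, with dotted lines at 1.5-fold. The large-subunit genes chosen by symbol or description lie between -0.19 and 0.07, and the widest interval, that of RPS23, runs from -1.63 to 0.11.

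Small-subunit genes split nearly evenly, with 6 of 11 lower, a median difference of -0.06 and 8 of 11 intervals within 1.5-fold. RPS6, the substrate of the S6 kinases that act in the mTOR pathway, had levels of 5.82, 5.68 and 5.91 in hypoxia and 5.97, 5.94, 5.91 and 6.17 in control. The highest hypoxia array, replicate 3, lay just under the lowest control, and the difference was -0.20 (SE 0.11; adjusted p = 0.424). Over the 22 alternative settings the RPS6 difference stayed between -0.25 and -0.14.

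RPS23, whose protein sits at the decoding centre, had the largest difference of all 19 genes. Its levels were 0.26, 0.15 and 0.08 in hypoxia, 1.55 and 1.58 in control replicates 1 and 2, and 0.23 and 0.32 in control replicates 3 and 4. Control replicate 3 lay below hypoxia replicate 1, so the groups overlapped, and the fitted difference was -0.76 (SE 0.37; adjusted p = 0.362).

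The RPS23 difference rested on the slide 2 controls. Against those alone it was -1.40, with an adjusted p of 0.0105 in limma, the 1 ribosomal protein probe past the threshold in that fit, in which 232 probes passed in all. Against the slide 3 controls alone it was -0.12 (adjusted p = 0.712). Leaving out each array in turn gave values from -0.99 (without control replicate 3) to -0.54 (without control replicate 2). The gap from the slide 2 controls to the highest of the other 5 arrays was 1.23, and of 12712 tested probes this was the 1 probe on which both slide 2 controls stood at least 1 above the other 5 arrays, a count chosen after its values were seen. The opposite pattern, both slide 2 controls at least 1 below the other 5, was found for 145 probes.

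**Figure D3:**
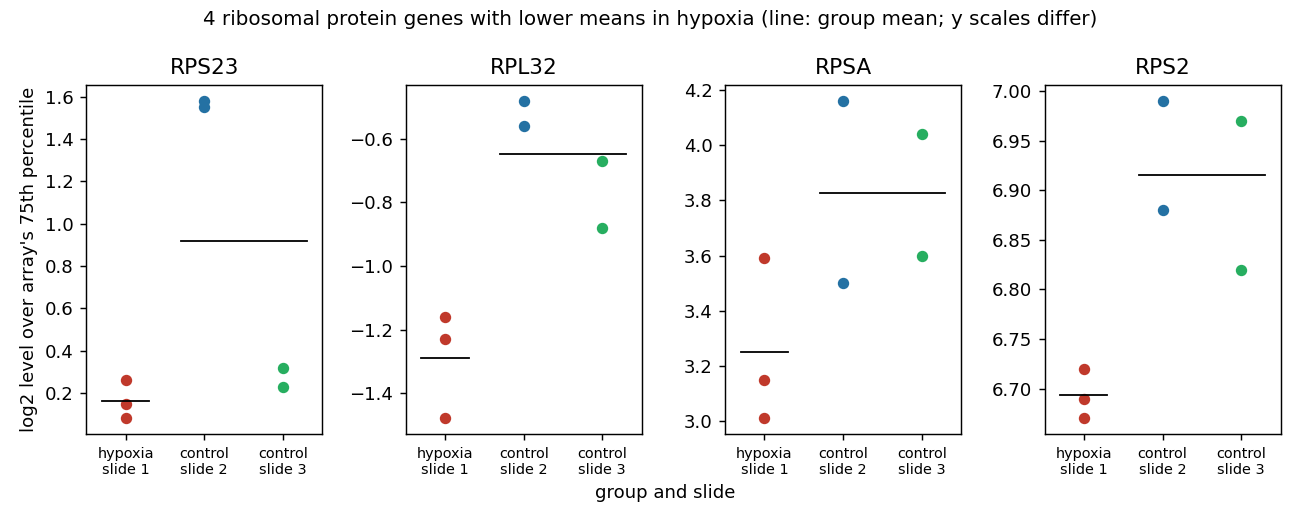
Log2 level relative to the array's 75th percentile for RPS23, RPL32, RPSA and RPS2 on each array (points), by group and slide, with a line at the mean of the 3 hypoxia and of the 4 control arrays; vertical scales differ between panels. RPS23 is high in the slide 2 controls alone, whereas RPL32 and RPS2 are lower on each hypoxia array than on each control array.

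RPS15 had the largest difference in the other direction. Its probe, like that of RPS23, was named only by an expressed-sequence cluster described as similar to the protein of another species, and this name was not checked against a genome. The probes of RPL11 and RPL27A and an RPS12 probe also carried a cluster name, and were members by description alone. RPS15 levels were -4.41, -3.80 and -3.93 in hypoxia and -4.34, -4.05, -4.52 and -4.49 in control. Hypoxia replicates 2 and 3 lay above the controls and hypoxia replicate 1 among them, and the difference was 0.30 (SE 0.18; adjusted p = 0.446). Leaving out hypoxia replicate 2 gave 0.18, and leaving out hypoxia replicate 1 gave 0.48.

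RPS25 gave different spreads by probe. Probe 1, with the AATAAA hexamer near its 3′ end, had levels of 5.75, 5.58 and 6.07 in hypoxia and 5.32, 5.63, 5.69 and 6.30 in control, a difference of 0.07 (SE 0.24; adjusted p = 0.911). Probe 2 had levels of 5.65, 5.44 and 5.67 in hypoxia and 5.58, 5.66, 5.49 and 5.90 in control, a difference of -0.07 (SE 0.13; adjusted p = 0.819). The controls thus spread over 0.98 on probe 1, with control replicate 1 lowest and control replicate 4 highest on it. A further pair of RPS25 probes, with differences of 0.89 (SE 0.44) and 0.39 (SE 0.36), was not well above background on every array.

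The hexamer AATAAA, searched as printed, was in 5 of 32 member probes (15.6%), beside 5.63% of all 15008 probes, and on the reverse strand in 2, beside 3.70%. The variant ATTAAA was in 2 of 32 member probes as printed, beside 2.63%. The 5 AATAAA probes included those of RPL11 and RPL13A, probe 1 of RPS25 and a further RPS12 probe not printed above. That RPS12 probe differed by -0.05 (SE 0.14). On the 5 AATAAA probes the controls spread over a median of 0.49 on the log2 scale (0.19 to 0.98). The median was 0.34 (0.07 to 1.35) on the 24 others above background on all arrays. The hypoxia arrays spread over a median of 0.18 on the former and 0.23 on the latter. A match says only that these letters lie in the probe.

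Other small-subunit genes lay near 0. RPS15A differed by 0.01 (SE 0.16) and RPS20 by -0.10 (SE 0.11). RPS12 differed by -0.13 (SE 0.14) on its probe 1, while probe 2, with 52 shared bases, gave 0.00 (SE 0.12). RPS26 differed by 0.13 (SE 0.16) on the brighter of its probes chosen by description or symbol and by 0.06 on a second that shares 59 bases.

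RPS27A, made as a fusion of ubiquitin with a small-subunit protein, had levels of 6.44, 6.20 and 6.19 in hypoxia and 6.31, 6.24, 6.25 and 6.54 in control. Hypoxia replicate 1 and control replicate 4 were the highest of their groups, and the difference was -0.06 (SE 0.12; adjusted p = 0.848).

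The 4 genes recognised only through RefSeq all had a lower mean in hypoxia, with a median of -0.40, which was not tested against the other 19. Of these, 3 reached an unadjusted p under 0.05, beside 6.91% of all tested probes in that direction. None passed the adjusted threshold. With these genes the count became 17 of 23 lower and the median -0.10, with RPS26 read by its RefSeq-named probe, whose difference was near 0 (adjusted p = 0.9999).

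The RPL32 probe was made from an expressed sequence and tied to this large-subunit gene only by the gene identifier in the array file, and its name was not checked against a genome. It had levels of -1.23, -1.16 and -1.48 in hypoxia and -0.48, -0.56, -0.88 and -0.67 in control. Each hypoxia array lay below each control array. The difference was -0.64 (SE 0.14; adjusted p = 0.135), a 1.56-fold lower level. It was -0.77 against the slide 2 controls and -0.52 against the slide 3 controls. It lay between -0.72 and -0.55 as each array was left out.

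RPSA, the small-subunit protein also known as the laminin receptor precursor, had levels of 3.01, 3.15 and 3.59 in hypoxia and 4.16, 3.50, 4.04 and 3.60 in control. Hypoxia replicate 3 lay among the controls. The difference was -0.58 (SE 0.21; adjusted p = 0.276), with -0.58 and -0.57 against the controls of slides 2 and 3, and it ranged from -0.75 to -0.46 as each array was left out.

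RPS2, a small-subunit protein at the entry of the message channel, whose probe was tied to the gene in the same way as that of RPL32, had levels of 6.72, 6.67 and 6.69 in hypoxia and 6.88, 6.99, 6.82 and 6.97 in control. The groups did not overlap, and the hypoxia arrays lay within 0.05 of each other. The difference was -0.22 (SE 0.09; adjusted p = 0.315), with -0.24 and -0.20 against the controls of slides 2 and 3. RPL34 differed by -0.08 (SE 0.12) and by -0.04 (SE 0.18) on a second probe with no bases in common.

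Bright probes of 1 gene gave differences close to each other, though not always of the same sign. Over 16 pairs in 8 genes, with both probes well above background on all arrays, the differences lay a median of 0.06 and at most 0.14 apart, and 11 of 16 pairs had the same sign. Of these pairs, 7 shared at least 20 bases. Pairs with a dimmer probe, outside this count, lay further apart, up to 0.96 for RPS25. Some probes also share bases with probes of no name here: an opposite-strand probe with 59 bases in common with RPL4 differed by 0.11 (SE 0.17), one with 55 bases in common with RPS2 by 0.17 (SE 0.19), and a same-strand probe with 29 bases in common with RPL35A by -0.02 (SE 0.14).

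Control replicate 4 set much of the spread between arrays. It was the highest of the 4 controls for 14 of 19 genes, beside 26.0% of all tested probes. It was also the highest of all 7 arrays for 14, and the matching share over all tested probes was not counted. The median deviation of the 19 genes from their own means was 0.18 on that array and lay between -0.07 and 0.02 on the other controls. In hypoxia it was 0.01, -0.10 and -0.04.

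This standing of control replicate 4 depended on the scaling. It was the highest control for 13 of 19 genes with scaling to the median, beside 22.3% of all tested probes. With another background correction it was the highest for 14, beside 19.3%. After quantile normalization, which gives each array the same distribution, it was the highest control for 6 of 19 genes, beside 20.3% of all tested probes. Control replicate 1 was then the highest for 7, beside 30.5%, and the median deviation of control replicate 4 was 0.06. The 95th percentile of that array lay 3.23 above its 75th, against 3.17 to 3.20 on the other controls and 3.12 to 3.13 on the hypoxia arrays. Without it, 10 of 19 genes were lower in hypoxia and the median difference was -0.02.

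Some marker lists of other tissues were high on the same array and others were not. Red cell markers (3 of 11 measured) lay a mean of 1.13 above their own means there, and meningeal and fibroblast markers (6 of 11) 0.68 above, with 0.60 on control replicate 3. Pituitary markers (6 of 14) lay 0.84 above, with prolactin (PRL) at 1.13 on that array and between -5.14 and -3.46 on the other 6, while CGA, the shared hormone subunit, lay at -2.50. Astrocyte, endothelial, lymphocyte and microglial markers lay between -0.06 and 0.08 there, and the 1 measured ependymal marker at -0.76. Summed over their probes on the linear scale, red cell markers ran from 12.9 to 17.5 in hypoxia and from 4.14 to 37.0 in control, with control replicate 4 at the top. Pituitary markers ran from 9.22 to 9.53 and from 5.72 to 11.5, and meningeal markers from 13.2 to 19.9 and from 17.9 to 40.2. Marker lists also differed between the groups. All 6 meningeal markers (median -0.72) and all 4 endothelial markers (median -0.29) had a lower mean in hypoxia, beside 45.3% of all tested probes. All 4 astrocyte markers (median 0.48) and both microglial markers (median 0.19) had a higher one. Red cell, pituitary and lymphocyte markers went both ways, and none of these markers passed the adjusted threshold. The part of these tissues in the ribosomal protein values was not tested.

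**Figure D4:**
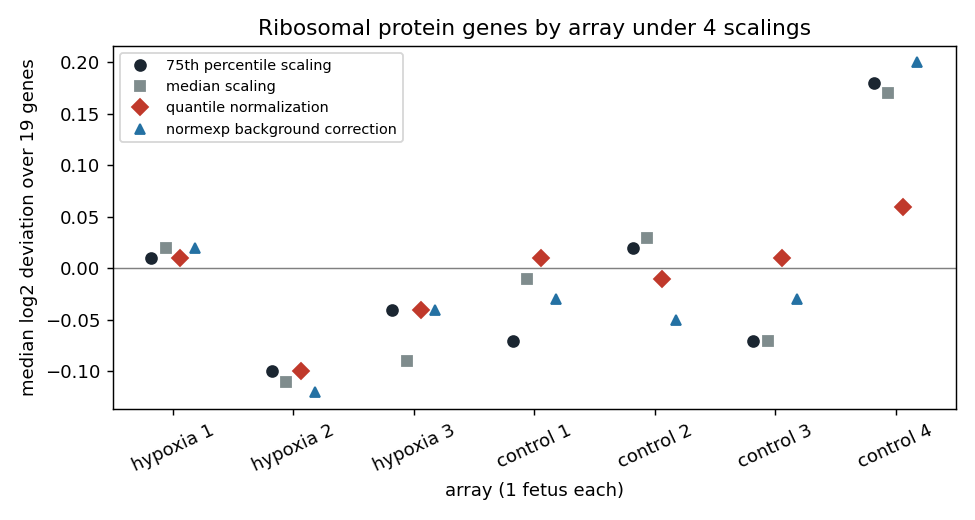
Median over 19 ribosomal protein genes of the log2 deviation from the gene's mean over 7 arrays (vertical axis), for each array and under 4 scalings (symbols). Control replicate 4 stands at 0.18 with 75th percentile scaling and at 0.06 after quantile normalization, and the hypoxia arrays lie between -0.10 and 0.01 in both.

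Other genes of translation were counted from lists chosen with earlier results known. Of 7 measured translation factors, 4 were lower and 3 higher, with a median of -0.01 and 0 past the adjusted threshold. EIF4A2, an RNA helicase of the initiation complex, had levels of 3.51, 3.09 and 3.15 in hypoxia and 2.94, 2.97, 3.05 and 3.08 in control. Each hypoxia array lay above each control, and the difference was 0.24 (SE 0.13; adjusted p = 0.397). EIF3A, a scaffold of the initiation factor that binds the small subunit, differed by -0.13 (SE 0.09; adjusted p = 0.505). For EIF3A each hypoxia array lay below each control, the nearest at 2.55 and 2.57. The groups thus did not overlap for 2 of 7 translation factors, beside 16.2% of all tested probes.

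Of 6 other messages with a terminal oligopyrimidine tract, 3 were lower, with a median of 0.01. This list overlaps that of the translation factors, and EEF1A1 is among the genes counted in both. The elongation factor EEF1A1 differed by -0.08 (SE 0.11; adjusted p = 0.771). Of 40 genes of ribosome assembly 1 was measured, the pseudouridine synthase DKC1, which differed by -0.09 (SE 0.14). The mitochondrial ribosomal protein MRPL32 differed by 0.27 (SE 0.18; adjusted p = 0.474).

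Of 30 genes of mTOR signalling and the integrated stress response, 3 were measured and none passed the adjusted threshold. MYC, a transcription factor that promotes ribosome production, had levels of -0.34, -0.08 and -0.28 in hypoxia and 0.00, 0.28, 0.21 and 0.06 in control. Each hypoxia array lay below each control, and the difference was -0.37 (SE 0.12; adjusted p = 0.235). The kinase AKT1, upstream of mTOR, differed by -0.17 (SE 0.16; adjusted p = 0.620). The reference genes GAPDH and UBB differed by -0.18 (SE 0.14) and 0.13 (SE 0.14).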

How the data were processed

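Hypothalamic RNA was labelled with Cy3 and hybridised to 1-colour Agilent sheep arrays. Per the labels' protocols, RNA integrity numbers ran from 7.4 to 8.4, not given per sample. Per the file headers, spot intensity was extracted with Agilent Feature Extraction 10.1.1.1, and the processed intensity is background-subtracted. A deposited table of log2 values matched that processed intensity within 5e-09, with no scaling between arrays.

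Levels are log2 processed intensity minus each array's 75th percentile over non-control spots. Control and outlier spots were dropped, and repeat spots of a probe were averaged. A probe was tested if it was well above background on 3 or more of the 7 arrays, which kept 12712 of 15008. The 2-sided test was eBayes after lmFit (limma 3.58.1 under R 4.3.3), with Benjamini-Hochberg adjustment at 0.05. Where a gene had several probes, the one with the highest mean level stood for it. RefSeq names are those of the ARS-UI_Ramb_v3.0 table, used for names only.

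Members and lists were chosen with earlier results of these data known. Named were the 8 lower and 6 higher genes of smallest unadjusted p, a fixed set (RPSA, RPS6, stalk, fusion and PCR reference genes) and 2 genes of each pathway list; other members appear with brief values. Some items are not reported here by name, though counts and medians include them. For 1 such gene outside the members, a brighter probe that shares bases with a probe of another gene was set aside after its values were seen. The count of probes with the RPS23 pattern, the AATAAA search, the counts for control replicate 4 and the alternative with RefSeq-named probes were added after the data were seen.

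In 20 simulated sets of 12686 probes for hypoxia against control, the fit recovered 14.0% of 1.5-fold changes, 69.6% of 2-fold changes and 94.8% of 4-fold changes, and 5.61% of calls were false. The simulated noise was independent between probes and arrays and held no slide difference. These rates therefore do not cover the confounding of slide with treatment. P-values measure the spread between these fetuses, and precision is limited by the number of arrays. Alternatives covered background correction, scaling, filters, slide, replicate block, prior, array weights, probe choice, membership and leaving out each array.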

Additional observations from a re-analysis of the deposited data

Results flagged for a closer look

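RPL27A, a large-subunit protein gene by the description of its probe, had 1 control apart from the other 3. Control replicate 4 stood at 6.84 on the log2 scale, against 6.63, 6.65 and 6.65 in control replicates 1, 2 and 3. Of 39 sets of 4 controls examined, 1 held such a gap, and chance alone gives about 1.95.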

How the results depend on the processing

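The count of ribosomal protein probes past the adjusted threshold was 0 under each alternative except against the slide 2 controls alone, where RPS23 passed (1 probe). The median difference lay between -0.13 (without hypoxia replicate 1) and -0.01 (slide 2 controls alone), and -0.02 without control replicate 4. The number of the 19 genes lower ran from 10 to 16, and was 6 of 8 by symbol alone. Over all tested probes, the 2 calls became 10 with normexp or with the deposited values, 0 without a filter or with the 75th percentile taken over probes above background throughout, 25 among probes above background on all arrays, 232 and 4 against the slide 2 and slide 3 controls alone, 57 with a trended and robust prior, 4 with array weights, and 0 to 6 as each array was left out.

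With the replicate number as a block, 0 probes passed, and the median was -0.02. Same-numbered arrays deviated together with correlations of 0.0661, 0.0893 and 0.140, and each hypoxia array correlated best with its own number. These values cannot tell whether same-numbered samples were paired, and the titles give only a replicate number. With slide as a random block the estimated correlation was -0.0318.

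Of 330 values for the lower, higher and fixed genes named by rule, 20 changed sign, in 4 genes near 0. RPL11, RPL34, RPL35A, RPS12, RPS20 and RPS26 were not in this count. Among these, RPL35A, for example, had a lower mean in the main fit and was 0.04 against slide 2. RPS25 was -0.19 against slide 3 and ran from -0.07 (without control replicate 1; -0.06 without hypoxia replicate 3) to 0.26. RPL6 was -0.0039 with normexp, -0.0099 with median and -0.11 with quantile scaling, and ran from -0.08 to 0.12 with arrays left out. RPS15A was -0.05 with normexp, -0.02 with median scaling, -0.15 against slide 3, -0.0061 with array weights, and ran from -0.07 to 0.12 with arrays left out. RPS27A was 0.0038 against slide 2, 0.01 with the replicate block and ran from -0.14 to 0.01 with arrays left out. The cause was not tested.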
